A study of Mus musculus with 6 samples.

Results

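*Prg4*-positive cells were a small population of the Day 7 digits in a dish (DID) cultures, 400 of the 18728 Day 7 cells and of the 54126 cells of the whole series that passed the limits on cell quality. A cell was taken as *Prg4*-positive when it held at least 5 unique molecular identifiers (UMIs, one per captured RNA molecule) of *Prg4*, among cells with at least 3000 UMIs, at most 7500 genes and at most 25% of UMIs from mitochondrial genes. *Prg4* counts therefore chose these cells, and *Prg4* itself is described without a test. Cells of the same 2 libraries with no *Prg4* UMI, 8651 in replicate A and 8886 in replicate B, served as the comparison and are called *Prg4*-negative, meaning that none was detected at the depth of the cell. The 791 Day 7 cells with 1 to 4 UMIs were kept apart.

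The DID cultures were started from distal forelimb mesenchyme of wildtype CD-1 mouse embryos at E11.5, with tissue of several embryos pooled and dissociated, and were sampled at Day 2, Day 7 and Day 10. At each day 2 independent cultures, replicate A and replicate B, gave 1 droplet library each, made with a 10x Genomics 3′ gene expression kit. No treatment or genotype differed between the samples. The cultures are dissociated mesenchyme that reassembles in a dish, so the cells described here are not cells of an embryonic joint.

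*Prg4* encodes lubricin, also called proteoglycan 4, a mucin-like secreted glycoprotein that coats articular cartilage, synovium and tendon and lets their surfaces slide. In the mouse limb it marks the superficial cells of articular cartilage and synovial lining cells, and lineage tracing places progenitors of deeper articular cartilage among the *Prg4*-expressing cells of the young joint. Articular cells arise from the *Gdf5*-expressing joint interzone, whereas digit cartilage arises from *Sox9*- and *Col2a1*-expressing condensations, and tendons from *Scx*-expressing progenitors that later express *Tnmd*. The gene (ENSMUSG00000006014) lies on the minus strand of chromosome 1, at 150449412 to 150466165 of GRCm38, and the annotation gives it 8 transcripts with 4 to 13 exons. A 3′ library counts these transcripts together.

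Most *Prg4* RNA of the Day 7 cells within the quality limits sat in these few cells. They made up 232 of 9355 cells in replicate A, which is 2.48% with an exact binomial 95% interval of 2.17 to 2.82%, and 168 of 9373 cells in replicate B, which is 1.79% with an interval of 1.53 to 2.08%. They held 91.8% of the *Prg4* UMIs of the cells within the limits in each library, a share that their choice by *Prg4* counts favours. The intervals cover counting error only. The *Prg4* level in the sum of these cells was 870 CPM (UMIs of the gene per 1000000 UMIs of the class) in one Day 7 library, replicate A, and 815 CPM in the other, against 40.7 and 28.1 CPM over all cells of the same libraries.

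The *Prg4* content of single cells was uneven. The median cell held 15 UMIs in replicate A and 14.5 in replicate B, and the highest held 517 and 209. The 10% of cells with the most *Prg4* held 48.1% of the *Prg4* UMIs of the positive cells in replicate A and 39.96% in replicate B. At least 20 UMIs were found in 94 and 69 cells, at least 50 in 39 and 33, and at least 100 in 15 and 11, so a short tail of cells carried much of the transcript in both cultures. No gap separated cells at the threshold: 27 and 19 cells held exactly 4 UMIs and 14 and 12 held exactly 5, at a median of 1.37 and 1.15 *Prg4* UMIs per 10000 UMIs just below the threshold and 1.29 and 1.59 just above it.

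**Figure D1:**
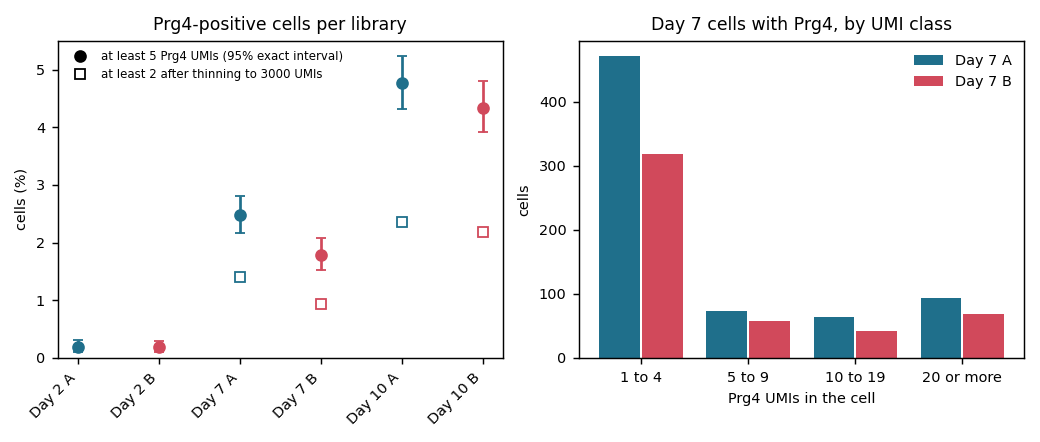
Left, share of cells that were *Prg4*-positive in each library (filled circles, at least 5 UMIs, bars are exact binomial 95% intervals) and, for Day 7 and Day 10, the share with at least 2 *Prg4* UMIs after every cell was thinned to 3000 UMIs (open squares), in percent on the vertical axis. Right, number of Day 7 cells by *Prg4* UMI class in replicate A and replicate B. The share rose from under 1% at Day 2 to 2.48% and 1.79% at Day 7 and 4.77% and 4.34% at Day 10, and 94 and 69 Day 7 cells held 20 or more UMIs.

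*Prg4*-positive cells were rare at Day 2, with 17 cells (0.190%) in replicate A and 18 cells (0.185%) in replicate B, and more frequent at Day 10, with 398 cells (4.77%) and 363 cells (4.34%). The 2 libraries of each day did not overlap those of another day. The median *Prg4* count of a positive cell was 15 and 14.5 UMIs at Day 7 and 15 and 16 UMIs at Day 10. When each cell was thinned to 3000 UMIs and 2 or more *Prg4* UMIs were asked for, 1.40% and 0.928% of Day 7 cells and 2.36% and 2.18% of Day 10 cells passed, again with Day 10 above Day 7. With 2 libraries a day, an exact two-sided permutation test between days cannot go below p = 0.333, and none was run.

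*Prg4*-positive cells were deeper than their neighbours. Their median was 37532.5 UMIs and 5781 genes in replicate A and 37933.5 UMIs and 5774 genes in replicate B, against 18501 UMIs and 3917 genes, and 17639.5 UMIs and 3797.5 genes, in *Prg4*-negative cells. A threshold on UMIs selects deep cells, and larger cells also hold more RNA, and these cannot be told apart here. For that reason the tests below were also run against *Prg4*-negative cells drawn to the same distribution of total UMIs (depth-matched), as far as cells of that depth were found. The mitochondrial share was alike, at a median of 2.98% and 2.94% against 3.05% and 2.90%. A further 50 and 30 barcodes with at least 5 *Prg4* UMIs lay outside the quality limits, 49 and 28 of them for holding more than 7500 genes. Day 7 libraries A and B shared 22 cell barcodes by sequence, and none of these was *Prg4*-positive in both libraries.

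Markers of other cell types were counted in these cells, and *Prg4* was counted in cells of other types, where free RNA in the droplets would show. Cells carrying macrophage markers (at least 10 UMIs over the list), which should lack *Prg4*, numbered 29 and 49 and had median depths of 30592 and 25388 UMIs. At least 1 *Prg4* UMI was found in 2 and 3 of them (6.90% and 6.12%), against 7.53% and 5.20% of all cells, and at least 5 UMIs in 0 and 0, which allows shares of up to 10.3% and 6.12% (3 cells of the total; the exact binomial 95% limits are 11.9% and 7.25%). Cells carrying myocyte markers held at least 5 *Prg4* UMIs in 3 of 90 (3.33%) and 6 of 81 (7.41%), at median depths of 35374.5 and 38575 UMIs, against 2.48% and 1.79% of all cells. Conversely, the 10 macrophage markers together gave 7 and 13 UMIs over all *Prg4*-positive cells (0.782 and 2.05 CPM, against 31.5 and 43.2 CPM in *Prg4*-negative cells), with *C1qb*, *C1qc* and *Adgre1* at 0 in both libraries. Erythroid markers were at 0, and the 7 endothelial markers gave 2 and 5 UMIs. Myocyte markers stood at 22.2 and 39.2 CPM against 160.0 and 52.6 CPM, and the 7 epithelial markers at 13.2 and 29.1 CPM against 40.1 and 35.5 CPM.

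The transcriptome of *Prg4*-positive cells differed broadly from that of *Prg4*-negative cells of the same library. UMIs were summed per library and *Prg4* class and tested by the quasi-likelihood method of edgeR, blocked on library, at a Benjamini-Hochberg adjusted p of 0.05. Of 14315 genes, 3660 (25.6%) were higher and 3596 (25.1%) lower in *Prg4*-positive cells, 50.7% in all. Against depth-matched *Prg4*-negative cells the counts were 2548 (18.5%) and 2222 (16.1%) of 13801 genes, 34.6% in all. So large a background means that a list's count is read against these shares. Without replicate A, 2069 genes were lower. The p-values measure the spread of the class differences between the 2 cultures of a day, since the block takes out the level of each library. In fits without a Day 7 library that spread comes from Day 10 alone, and the lone Day 7 culture is assumed to vary like those of Day 10.

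The label articular-like comes from *Prg4*, which chose the cells, while cartilage genes were lower and lists of joint genes went both ways. The 22 chondrocyte genes were all lower (22 of 22, also depth-matched, median log2 fold change of -2.79, against -0.03 over all genes tested). *Col2a1*, the fibrillar collagen of cartilage, stood at 1354 and 1303 CPM in *Prg4*-positive cells of replicates A and B and at 9349.7 and 8495 CPM in *Prg4*-negative cells, a log2 fold change of -2.78 ± 0.19 (SE; adjusted p = 1.3e-07). *Acan*, the main cartilage proteoglycan, stood at 176 and 171 CPM against 1117 and 1013 CPM. *Sox9*, the transcription factor that sets the cartilage fate, stood at 86.0 and 97.8 CPM against 304 and 292 CPM (-1.74 ± 0.06, adjusted p = 7.5e-10). Summed per class, *Prg4*-positive cells were thus low in cartilage transcripts in both cultures, while single cells of the classes overlapped.

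Cartilage transcripts were also few in most single *Prg4*-positive cells. The 22 genes together took a median of 0.147% and 0.146% of a *Prg4*-positive cell's UMIs, against 2.24% and 1.55% in *Prg4*-negative cells 0.186% and 0.0982% in macrophage-marker cells and 0.402% and 0.398% in myocyte-marker cells. Only 9 of 232 and 14 of 168 cells lay above the *Prg4*-negative median. A minority nevertheless carried much cartilage RNA: 27 cells (11.6%) and 23 cells (13.7%) held at least 50 *Col2a1* UMIs, against 55.2% and 46.3% of *Prg4*-negative cells. In these 27 and 23 cells *Col2a1* summed to 7791 and 5735 CPM and *Acan* to 984 and 717 CPM, against 341 and 287 CPM and 48.9 and 46.3 CPM in the other *Prg4*-positive cells, while *Ly6a* stood at 135 and 225 CPM, *Pmepa1* at 945 and 792 CPM and *Tagln* at 1362 and 2143 CPM. Macrophage-marker cells passed the same *Col2a1* count in 5 of 29 (17.2%) and 7 of 49 (14.3%), and myocyte-marker cells in 34 of 90 (37.8%) and 31 of 81 (38.3%). These 2 types should not make *Col2a1*, and the share of *Prg4*-positive cells was no higher than in either. Whether free RNA gave the *Col2a1* counts of any of these cells was not tested. The *Prg4*-positive cells with at least 50 *Col2a1* UMIs were also the deepest, at a median of 44787 and 56234 UMIs against 36115 and 36254 in the other *Prg4*-positive cells, and whether they were droplets holding 2 cells was not tested.

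Markers of the joint surface went in both directions. Of the 13 tested, 4 were higher and 5 lower, and 4 and 2 when depth-matched. Of all genes tested 25.6% were higher and 25.1% lower, and 18.5% and 16.1% when depth-matched. *Erg*, an ETS factor of the joint and articular layer, was at 26.5 and 30.2 CPM against 14.4 and 12.9 CPM (log2 fold change 1.01 ± 0.10, adjusted p = 3.8e-06). *Thbs4*, a matricellular protein of tendon and articular tissue, was at 59.9 and 41.3 CPM against 7.34 and 6.59 CPM (2.83 ± 0.17, adjusted p = 3.9e-08). *Dkk3*, a secreted member of the Dickkopf family, and *Tnc*, the matrix glycoprotein tenascin C, were the other two that were higher, at 114 and 105 CPM against 37.8 and 35.5 CPM for *Dkk3* and at 332 and 346 CPM against 187 and 160.0 CPM for *Tnc*. *Creb5*, a factor that drives *Prg4* in articular chondrocytes, stood at 24.7 and 17.5 CPM against 18.8 and 22.0 CPM, and its groups overlapped (0.06 ± 0.14, adjusted p = 0.73, but 0.38 with adjusted p = 0.045 without replicate B). *Abi3bp* was likewise at 77.9 and 63.1 CPM against 72.0 and 75.9 CPM, but was called lower without replicate A (-0.28, adjusted p = 0.013). *Cd200*, a surface protein, was lower, at 3.91 and 4.09 CPM against 18.7 and 17.0 CPM.

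After thinning to 3000 UMIs, an *Erg* UMI was seen in 5.17% of *Prg4*-positive and 5.05% of *Prg4*-negative cells of replicate A and in 11.3% and 4.90% of those of replicate B, and a *Dkk3* UMI in 28.4% against 11.3% and in 28.6% against 10.6%. These shares are descriptions of cells within a library. In sums of the thinned cells *Erg* did not pass the test (0.59 ± 0.27, adjusted p = 0.099).

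Among the 13 genes listed as regulators of *Prg4*, 2 were higher and 7 lower, and 2 and 4 when depth-matched. *Foxo1*, a forkhead factor needed for lubricin in articular cartilage, was the other one higher beside *Erg*, at 36.3 and 33.4 CPM against 20.9 and 19.5 CPM (0.75 ± 0.08, adjusted p = 5.2e-06), though it did not pass in sums of thinned cells (adjusted p = 0.12). *Nfat5*, a factor that responds to osmolarity, was lower at 67.6 and 64.4 CPM against 100.5 and 101 CPM. *Tgfbr2*, a TGF-beta receptor, and *Nfatc1* were lower against all *Prg4*-negative cells (-0.40 ± 0.08 and -0.45 ± 0.14) but not when depth-matched, where their log2 fold changes were -0.02 and 0.11 and their adjusted p 0.92 and 0.72. They also leaned on single libraries, with *Tgfbr2* at -0.28 without replicate A and *Nfatc1* at -0.29 without replicate B.

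Of the 16 interzone genes, 4 were higher and 9 lower in *Prg4*-positive cells (4 and 6 depth-matched). *Gdf5*, the growth factor that defines the interzone, was at 3.13 and 3.31 CPM against 9.05 and 11.1 CPM (-1.66 ± 0.19, adjusted p = 1.5e-05), and 3 and 2 *Prg4*-positive cells held 3 or more *Gdf5* UMIs. *Osr1*, a zinc-finger factor of the joint, stood at 13.1 and 7.87 CPM against 24.9 and 30.4 CPM, and *Nog*, a secreted BMP antagonist, at 15.9 and 19.4 CPM against 46.4 and 45.3 CPM. The WNT ligands of the list split: *Wnt16* was higher, at 30.8 and 26.0 CPM against 10.4 and 9.80 CPM (1.47 ± 0.09, adjusted p = 3.6e-08), whereas *Wnt4* was lower, at 3.57 and 6.61 CPM against 18.1 and 19.1 CPM. *Sfrp2*, a secreted WNT modulator, and *Sulf1*, an extracellular sulfatase, were higher with log2 fold changes of 1.19 ± 0.15 and 1.16 ± 0.05.

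Synovial fibroblast markers were also mixed, with 4 of 13 higher and 5 lower (4 and 3 depth-matched), beside 25.6% and 25.1% of all genes (18.5% and 16.1%). *Hbegf*, an EGF-receptor ligand, led them at 122 and 132 CPM against 36.6 and 37.0 CPM (1.75 ± 0.09, adjusted p = 9.3e-09), and *Cd44*, a receptor for hyaluronan, was at 32.8 and 41.3 CPM against 16.7 and 17.2 CPM. *Pdgfra*, a growth factor receptor of fibroblasts, was lower at 18.0 and 25.4 CPM against 59.1 and 60.2 CPM. *Clic5*, a marker of lubricin-producing lining cells, was higher but scarce, at 5.36 and 2.83 CPM against 0.906 and 0.755 CPM.

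Genes of hyaluronan metabolism went both ways, with 3 of 12 higher and 5 lower, and 3 and 3 when depth-matched. *Has2*, the main hyaluronan synthase of the limb, was at 2.79 and 3.78 CPM against 13.5 and 14.1 CPM (-2.14 ± 0.20, adjusted p = 2.2e-06), and *Ugdh*, which makes its sugar precursor, at 35.7 and 36.8 CPM against 102 and 97.1 CPM. *Cemip*, which acts in hyaluronan breakdown, was at 23.7 and 22.0 CPM against 6.69 and 6.58 CPM, and *Tnfaip6*, a hyaluronan-binding protein, at 17.4 and 10.1 CPM against 6.66 and 6.66 CPM, which was not called without replicate A (adjusted p = 0.098) or in sums of thinned cells (0.055). The link protein *Hapln1*, which also binds hyaluronan, was lower, with a log2 fold change of -2.88.

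The leading genes of *Prg4*-positive cells, the 12 highest and 12 lowest fold changes among called genes with at least 50 CPM, are shown in the plot of their levels. *Ly6a*, which encodes the progenitor surface antigen Sca-1, was first at 268 and 249.9 CPM against 36.0 and 32.4 CPM (2.89 ± 0.13, adjusted p = 4.0e-09). At least 3 *Ly6a* UMIs were found in 63.8% and 58.9% of *Prg4*-positive and in 4.67% and 4.39% of *Prg4*-negative cells, and after thinning at least 1 was found in 39.7% and 42.9% against 3.76% and 3.47%. *Angptl2*, a secreted angiopoietin-like protein, was at 240.4 and 232 CPM against 43.5 and 41.8 CPM, and *Lhx9*, a LIM-homeodomain factor of distal limb mesenchyme, at 69.1 and 65.4 CPM against 15.9 and 15.1 CPM. *Pmepa1*, a TGF-beta-induced membrane protein that restrains the pathway, was the most abundant leading gene at 1093 and 1069.9 CPM against 253 and 261 CPM. *Anxa8*, *Ahnak2*, *Crabp2*, *Basp1*, *Fxyd5* and *Ccdc80* followed with log2 fold changes between 1.79 and 2.42. The depth-matched fold change was smaller for *Thbs4* (1.94 ± 0.19) and *Anxa8* (1.62 ± 0.08) and remained called for all 12.

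**Figure D2:**
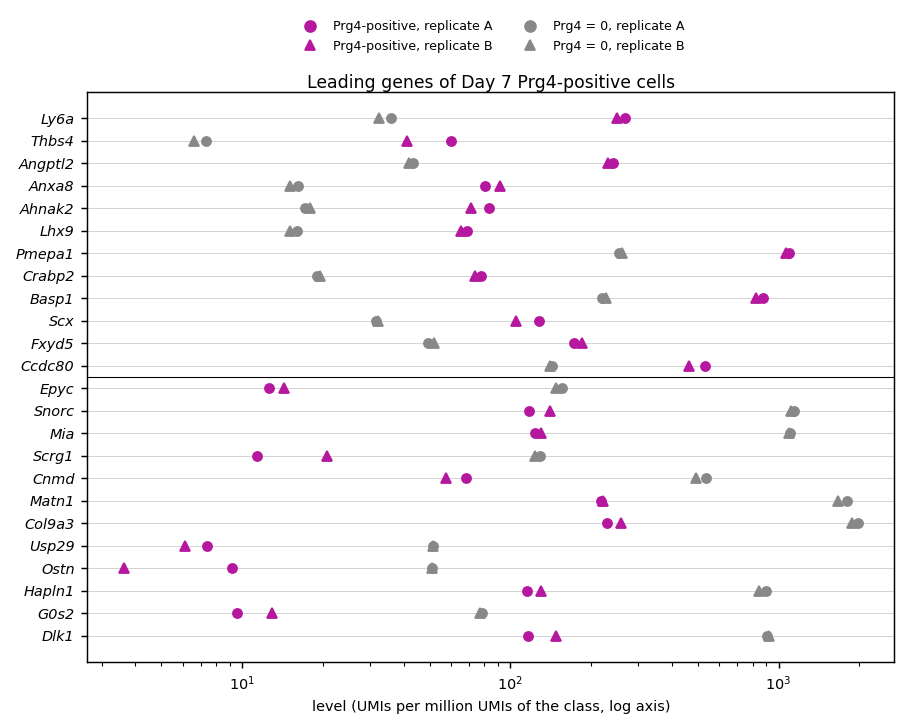
Level of the 12 most raised and 12 most lowered genes among called genes with at least 50 CPM, in CPM on a log axis. Values are for the summed *Prg4*-positive (purple) and *Prg4*-negative (grey) cells of Day 7 replicate A (circles) and replicate B (triangles). Both *Prg4*-positive values lie apart from both *Prg4*-negative values for all 24 genes, for example *Ly6a* at 268 and 249.9 against 36.0 and 32.4. The choice of these genes by fold change, by call and by the same sign in both libraries favours this separation.

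Of the 12 genes at the lower end, 7 belonged to the chondrocyte list. *Epyc*, a small leucine-rich proteoglycan of growth cartilage, was lowest at 12.6 and 14.3 CPM against 156 and 148 CPM (-3.56 ± 0.20, adjusted p = 2.2e-08), followed by the cartilage proteoglycan *Snorc* and the secreted cartilage protein *Mia*. *Dlk1*, an imprinted Notch-related ligand of immature mesenchyme, was at 116 and 148 CPM against 909 and 922 CPM, and *Ostn*, a secreted peptide of bone and muscle, at 9.16 and 3.62 CPM against 50.9 and 50.9 CPM. *Scrg1*, *Usp29* and *G0s2* completed the list.

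Contractile genes had a median log2 fold change of 0.88, against -0.03 over all genes tested, with 10 of 12 higher and 2 lower. This was the highest median of the lists with at least 8 genes tested against all *Prg4*-negative cells, while depth-matched it was 0.62, below the 0.64 of fibrous matrix genes. *Cnn1*, calponin 1 of smooth muscle and myofibroblasts, was at 273 and 273 CPM against 89.4 and 95.7 CPM (1.53 ± 0.05, adjusted p = 2.7e-10). *Acta2*, smooth muscle actin, and *Tagln*, transgelin, had log2 fold changes of 0.98 ± 0.03 and 1.09 ± 0.04, at 2416 and 2457 CPM against 1159.9 and 1267 CPM for *Acta2* and at 2372 and 2251 CPM against 1030.2 and 1102 CPM for *Tagln*. The other two were lower: *Actg2*, smooth muscle gamma actin, stood at 39.2 and 43.3 CPM against 60.6 and 75.2 CPM, a call lost without either replicate (adjusted p = 0.12 and 0.16), by DESeq2 (0.053) and in sums of thinned cells (0.80), and *Myh11*, the smooth muscle myosin heavy chain, at 0.670 and 0.472 CPM against 2.42 and 2.09 CPM. The 12 genes took a median of 1.17% and 1.08% of the UMIs of a *Prg4*-positive cell and 0.173% and 0.174% of those of a *Prg4*-negative cell, and 231 of 232 and 162 of 168 *Prg4*-positive cells lay above the *Prg4*-negative median. Depth-matched, 9 were higher and 1 lower.

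The fibrous matrix of perichondrium was likewise raised, with 11 of 14 higher and 3 lower, the same depth-matched. *Col1a1*, the main chain of type I collagen, was at 2803 and 2822 CPM against 1666 and 1584 CPM (0.76 ± 0.03, adjusted p = 1.2e-09). *Thbs2*, a thrombospondin of perichondrium, was at 198 and 209.6 CPM against 85.3 and 77.1 CPM, and *Col5a2* at 846 and 781 CPM against 360.1 and 341 CPM. *Col6a3*, *Postn* and *Eln* were lower, and *Eln*, which encodes elastin, differed between the cultures, with replicate A at 82.9 CPM and replicate B at 38.1 CPM against 91.7 and 93.2 CPM, and was not called without replicate B (-0.16, adjusted p = 0.15).

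Of the 12 tendon genes tested 7 were higher and 4 lower, and 6 and 4 depth-matched. *Scx*, the transcription factor of tendon progenitors, was at 128 and 105 CPM against 31.6 and 32.2 CPM (1.85 ± 0.08, adjusted p = 2.7e-09), and 65.9% and 59.5% of *Prg4*-positive cells held at least 3 *Scx* UMIs, against 8.22% and 8.05%. *Tnmd*, tenomodulin of differentiated tendon cells, was at 1.56 and 4.25 CPM against 16.2 and 18.3 CPM (-2.69 ± 0.28, adjusted p = 5.4e-06), with 1 and 3 *Prg4*-positive cells at 3 or more UMIs. *Col12a1*, a fibril-associated collagen, was higher at 749 and 666 CPM against 305 and 272 CPM, and *Lum*, lumican, lower at 69.5 and 72.6 CPM against 195 and 198 CPM. *Mkx*, the homeobox factor of tendon, was called only narrowly, at 10.3 and 10.4 CPM against 8.24 and 8.17 CPM (0.30 ± 0.11, adjusted p = 0.036), and not when depth-matched (adjusted p = 0.10) or without either replicate (0.16 and 0.15).

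Of the 11 hypertrophic genes 8 were lower and 1 higher, and 7 and 1 when depth-matched. *Panx3*, a channel of prehypertrophic cells, stood at 5.81 and 8.66 CPM against 51.3 and 44.0 CPM, and *Spp1*, osteopontin, was the one higher, at 952 and 1214 CPM against 476 and 498 CPM. *Col10a1*, the collagen of hypertrophic cartilage, was at 13.6 and 44.4 CPM against 30.9 and 27.4 CPM, so its groups overlapped (adjusted p = 0.79). Of the 8 bone genes 5 were lower and *Dmp1*, a matrix protein of osteocytes, higher, but depth-matched 3 were lower and none higher (*Dmp1* adjusted p = 0.51).

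**Figure D3:**
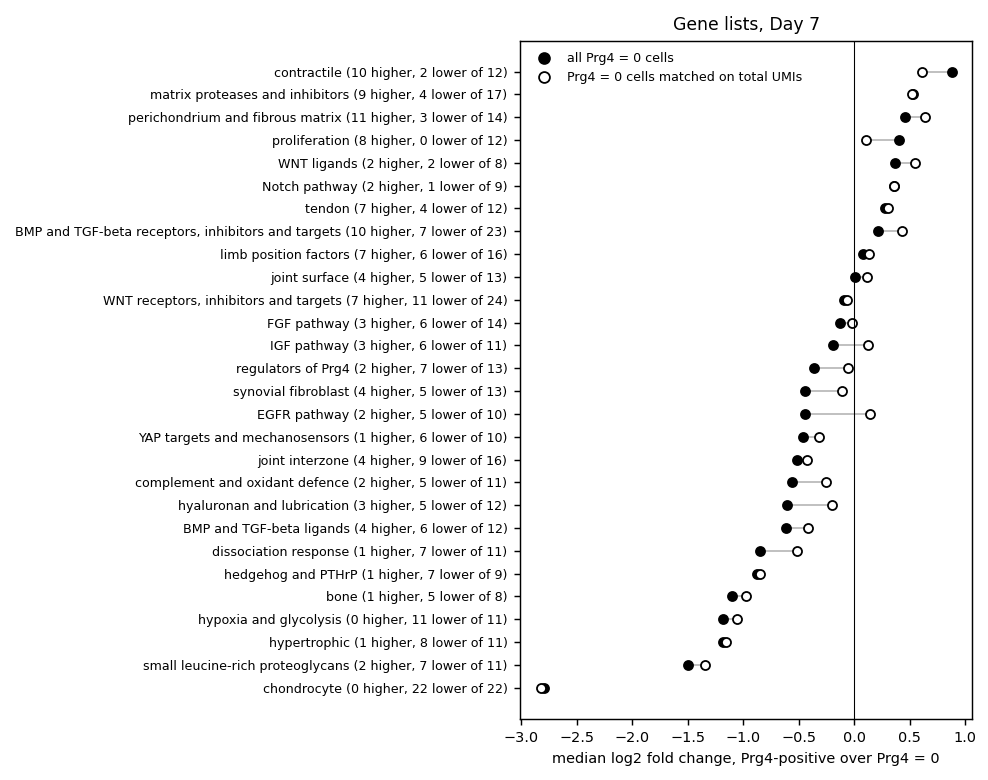
Median log2 fold change of gene lists in Day 7 *Prg4*-positive over *Prg4*-negative cells (horizontal axis), against all *Prg4*-negative cells (filled) and against *Prg4*-negative cells matched on total UMIs (open), with the number of genes called higher and lower beside each list name. Contractile genes had the highest median against all cells (0.88, and 0.62 matched) and fibrous matrix genes the highest when matched (0.64), while chondrocyte genes had the lowest (-2.79, and -2.83 matched) of the lists plotted, those with at least 8 genes tested other than the macrophage and myocyte markers.

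Of the 12 ligands of the TGF-beta and BMP families 4 were higher and 6 lower, and 4 and 5 when depth-matched. *Tgfb1* stood at 53.4 and 49.0 CPM against 25.3 and 23.5 CPM (1.04 ± 0.08, adjusted p = 2.1e-07), and *Inhba*, the activin A subunit, at 182 and 173 CPM against 92.1 and 94.4 CPM. *Bmp4* was the exception among BMPs, at 103 and 89.4 CPM against 38.3 and 41.0 CPM, while *Gdf10* was at 7.04 and 8.66 CPM against 21.1 and 16.3 CPM and *Bmp2*, *Bmp3*, *Bmp5*, *Bmp6* and *Bmp7* were lower at 11.1 CPM or less in every class. *Tgfb2* was at 140 and 131 CPM against 136 and 136 CPM (adjusted p = 0.55).

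Of the receptors, inhibitors and targets of these pathways, 10 of 23 were higher and 7 lower, and 13 and 4 when depth-matched. The latent TGF-beta binding proteins *Ltbp1* and *Ltbp2*, which store the ligand in the matrix, were at 155 and 146 CPM against 63.3 and 57.8 CPM and at 94.4 and 92.4 CPM against 32.4 and 29.9 CPM (1.28 ± 0.05 and 1.55 ± 0.05). The BMP targets split, with *Id3* higher at 643 and 677 CPM against 436 and 434 CPM and *Id1* lower at 119.9 and 146 CPM against 182 and 192 CPM, the latter no longer called when depth-matched (adjusted p = 0.80).

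Genes of the WNT pathway went both ways. *Wnt5a*, a noncanonical ligand, was at 67.8 and 70.4 CPM against 37.2 and 35.0 CPM, and *Rspo3*, a secreted enhancer of WNT signalling, at 254 and 262 CPM against 145 and 137 CPM (0.84 ± 0.06, adjusted p = 2.0e-07). The inhibitor *Dkk1* was higher but scarce, at 13.1 and 13.1 CPM against 2.06 and 2.41 CPM, while *Frzb*, a WNT antagonist of cartilage, was at 12.6 and 12.4 CPM against 58.6 and 53.3 CPM and *Sfrp1* at 4.91 and 3.46 CPM against 19.3 and 21.1 CPM. The WNT ligand list had 2 of 8 higher and 2 lower (2 and 1 depth-matched), near the 25.6% and 25.1% of all genes. The receptors, inhibitors and targets had 7 of 24 higher and 11 lower (8 and 9 depth-matched).

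In the FGF list 3 of 14 were higher and 6 lower (3 and 5 depth-matched). *Fgf2* was at 53.3 and 49.0 CPM against 16.9 and 15.5 CPM (1.63 ± 0.08, adjusted p = 7.9e-09), whereas *Fgfr3*, the receptor that restrains growth cartilage, was at 23.7 and 19.8 CPM against 119 and 106 CPM. The EGFR list had 2 of 10 higher and 5 lower but 1 and 2 when depth-matched, and *Egfr* itself turned from -0.47 ± 0.07 to 0.15 ± 0.10 (adjusted p = 0.37) when depth-matched. The hedgehog and PTHrP list had 1 of 9 higher and 7 lower (1 and 6 depth-matched): *Ptch1*, the receptor and target of hedgehog, was at 21.4 and 19.7 CPM against 69.6 and 67.8 CPM (-1.77 ± 0.09, adjusted p = 8.9e-09), and *Gli3*, which acts mainly as a repressor, was the one higher at 57.4 and 63.1 CPM against 36.3 and 37.3 CPM, but not in sums of thinned cells (0.15, adjusted p = 0.60). In the Notch list *Hes1* and *Jag1* were higher and *Notch2* lower of 9 tested, and *Notch2* was not called when depth-matched (adjusted p = 0.21) nor *Hes1* in sums of thinned cells (0.19, adjusted p = 0.076).

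Of the YAP targets and mechanosensors 1 of 10 was higher and 6 lower (1 and 5 depth-matched). *Trpv4*, a calcium channel of chondrocytes, was at 4.69 and 4.41 CPM against 37.8 and 35.3 CPM (-3.05 ± 0.17, adjusted p = 1.5e-08), and *Ankrd1*, a YAP target, at 8.15 and 3.46 CPM against 21.4 and 23.7 CPM. In the IGF list 3 of 11 were higher and 6 lower (2 and 4 depth-matched). The ligands *Igf1* and *Igf2* were lower, *Igf2* at 697 and 733 CPM against 1902 and 1815 CPM (-1.41 ± 0.04, adjusted p = 8.5e-11), and the binding protein *Igfbp3* higher at 174 and 205 CPM against 68.1 and 69.2 CPM.

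Of the 17 proteases and their inhibitors 9 were higher and 4 lower (9 and 3 depth-matched). *Timp1*, an inhibitor of metalloproteinases, was at 616 and 643 CPM against 274 and 277 CPM, and the membrane protease *Mmp14* at 139.6 and 138 CPM against 87.8 and 82.9 CPM, though not in sums of thinned cells (0.29, adjusted p = 0.078). *Adamts5*, an aggrecanase, was at 31.0 and 18.6 CPM against 13.0 and 13.7 CPM, and was not called without replicate A (adjusted p = 0.27) or in sums of thinned cells (0.45). Of the 11 small leucine-rich proteoglycans 7 were lower and 2 higher (7 and 3 depth-matched). *Dcn*, decorin, was at 23.0 and 22.2 CPM against 135 and 141 CPM (-2.65 ± 0.11, adjusted p = 2.1e-09), and *Bgn*, biglycan, was higher at 1272 and 1159 CPM against 619 and 615 CPM. In the complement and oxidant defence list 2 of 11 were higher and 5 lower but 1 and 2 when depth-matched, and *Mgp*, matrix Gla protein, was among the higher at 1899.8 and 2295 CPM against 1455 and 1447 CPM.

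Position factors of the limb differed. *Hoxa13*, which specifies the autopod, was at 26.7 and 29.6 CPM against 8.61 and 8.11 CPM (1.71 ± 0.11, adjusted p = 6.5e-08), and *Hoxd13* at 33.2 and 33.1 CPM against 15.5 and 13.3 CPM. *Shox2*, a homeobox factor of the proximal limb, was at 7.93 and 12.1 CPM against 48.9 and 48.5 CPM, and *Meis2*, another proximal factor, at 7.71 and 8.66 CPM against 24.0 and 22.0 CPM. The list had 7 of 16 higher and 6 lower, and 7 and 4 depth-matched.

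Genes of hypoxia and glycolysis were all lower, 11 of 11 in both fits. *Bnip3*, a mitophagy gene induced by low oxygen, was at 51.0 and 60.6 CPM against 243 and 265 CPM (-2.23 ± 0.10, adjusted p = 3.1e-09), and *Pgk1*, a glycolytic enzyme, at 334 and 376 CPM against 761 and 812 CPM. Immediate early genes that respond to dissociation were also lower, 7 of 11 with *Dusp1* higher in both fits, and *Fosb* stood at 21.4 and 22.7 CPM against 106 and 111 CPM. These stress genes move with the other differences, and their part in them was not tested. Of the 12 proliferation genes 8 were higher, and 4 higher and 1 lower when depth-matched: *Rrm2*, a subunit of ribonucleotide reductase, was at 90.8 and 85.2 CPM against 29.9 and 29.8 CPM in *Prg4*-negative cells, while *Mki67* went from 0.22 ± 0.08 to -0.10 ± 0.13 (adjusted p = 0.62) when depth-matched. The *Mki67* call was also lost by DESeq2 (adjusted p = 0.058) and without the library block (0.11). Without replicate A its log2 fold change was 0.04. *Cenpf*, another gene of the list, was lower when depth-matched (-0.69 ± 0.16, adjusted p = 0.0059), though not called against all *Prg4*-negative cells.

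Levels were followed over 5 *Prg4* classes, from 0 to 20 or more UMIs, as a description. *Angptl2* stood at 43.5, 106, 212, 237 and 263 CPM from the lowest to the highest class in replicate A and at 41.8, 122, 215, 218 and 250.5 CPM in replicate B, so it was higher in each class than in the one below it in both cultures. *Pmepa1* reached 1067 and 946 CPM in cells with 5 to 9 *Prg4* UMIs and stayed between 1101 and 1148 CPM above that. *Thbs4* went from 33.0 and 18.3 CPM at 5 to 9 UMIs to 70.0 and 64.8 CPM at 20 or more. *Creb5* showed no order, at 18.8, 20.6, 30.8, 25.7 and 19.8 CPM in replicate A and at 22.0, 25.4, 16.6, 16.7 and 18.5 CPM in replicate B. *Col2a1* dropped from 9349.7 and 8495 CPM to 5468 and 3741 CPM already at 1 to 4 UMIs, and *Igf2* to 553 and 628 CPM in the highest class. Total UMIs per cell rose with the class too, from a median of 18501 and 17639.5 to 39546 and 41928.

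**Figure D4:**
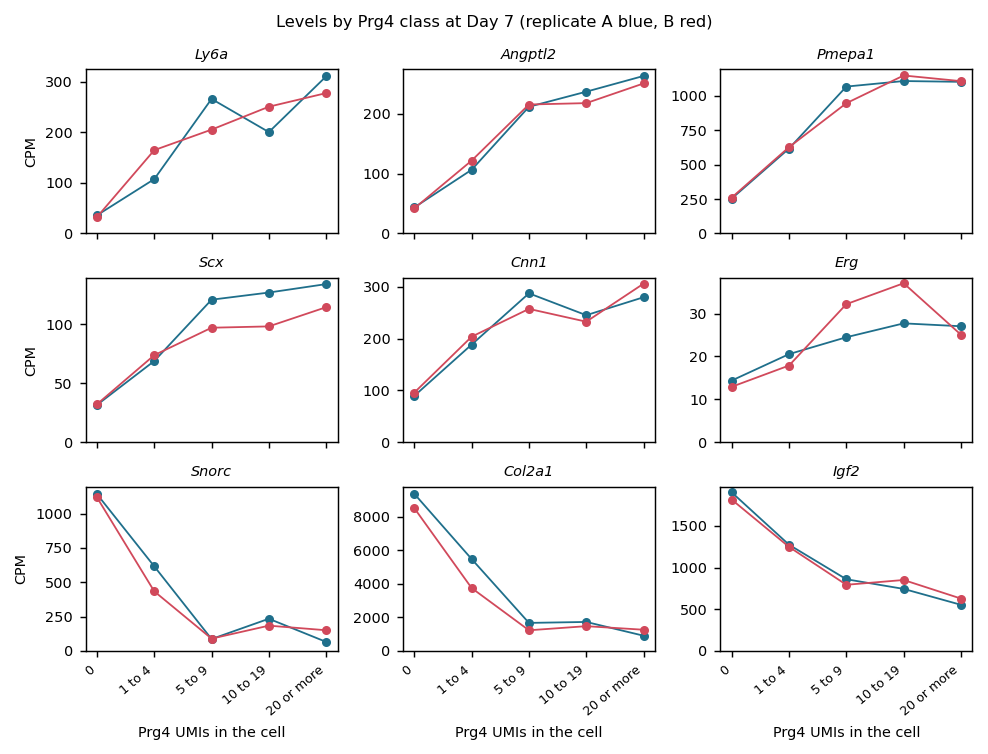
Level of 9 genes (CPM, vertical axis from 0) in the Day 7 cells summed by *Prg4* UMI class, with replicate A in blue and replicate B in red. *Angptl2* climbed from 43.5 and 41.8 CPM at 0 UMIs to 263 and 250.5 CPM at 20 or more, and *Col2a1* went from 9349.7 and 8495 CPM to 903 and 1259 CPM.

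The genes whose log2 level was most like that of *Prg4* over these 10 class sums, of 2757 genes with at least 50 CPM in *Prg4*-positive cells, were *Jak1* (Pearson's r = 0.991), *Rab5if*, *Prdx1*, *Hnrnpf*, *Basp1*, *Ahnak2*, *Cyth3*, *Reep5*, *Atp5d* and *Ccdc80* (r = 0.985). The classes were cut by *Prg4* counts, so the rise of *Prg4* over them was set in advance. The class sums also share their library and the rise in depth, and the correlation is a description.

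The *Prg4*-positive cells were next compared with 3 populations of *Prg4*-negative cells of the same libraries, chosen by a gene of a neighbouring tissue: tendon (*Tnmd* at least 3 UMIs, 317 and 343 cells), interzone (*Gdf5* at least 3 UMIs, 184 and 225 cells) and cartilage (*Acan* at least 5 UMIs, 4875 and 4391 cells). The 3 comparisons share the *Prg4*-positive cells, a cell passing several rules went to the first of *Tnmd*, *Gdf5* and *Acan*, and the genes that chose the cells were left out of the tests. The smallest number of differences was found against the *Tnmd* cells, with 2074 genes (15.7%) higher and 2075 (15.7%) lower of 13210, 31.4% in all, against 47.6% for the *Gdf5* cells and 60.0% for the *Acan* cells. Depth-matched, the shares called were 23.3% (10.9% higher and 12.4% lower), 39.8% (20.2% and 19.5%) and 47.7% (25.6% and 22.1%). Matching was incomplete for the *Gdf5* cells, where 137 of 232 and 82 of 168 *Prg4*-positive cells found no cell of their depth, and for the *Tnmd* cells, where 39 and 4 found none. All *Prg4*-positive cells stayed in these fits, so the *Gdf5* sums still differed in depth. The populations also differ in cell number, and the median depth of the *Gdf5* cells was 14078 and 9840 UMIs.

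Against the *Tnmd* cells, the contractile list went both ways. *Acta2* stood at 2416 and 2457 CPM in *Prg4*-positive and at 2394 and 2653 CPM in *Tnmd* cells, and 4 of 12 contractile genes were higher and 4 lower. *Scx* was at 128 and 105 CPM against 61.9 and 72.9 CPM (0.81 ± 0.09, adjusted p = 1.4e-05). Of the 11 tendon genes tested, however, 6 were lower and 3 higher (5 and 3 depth-matched), and the choice of these cells by *Tnmd*, a tendon gene, favours lower calls. Of the 14 fibrous matrix genes 6 were lower and 4 higher in both fits. *Thbs4* stood at 59.9 and 41.3 CPM against 34.7 and 48.4 CPM, groups that overlapped (0.29 ± 0.20, adjusted p = 0.29, and 0.021 without a filter on low counts), and *Mkx* at 10.3 and 10.4 CPM against 10.3 and 9.17 CPM (adjusted p = 0.66). *Igf1*, a growth factor, was at 31.8 and 33.7 CPM in *Prg4*-positive and 502 and 522 CPM in *Tnmd* cells (-3.96 ± 0.08, adjusted p = 2.2e-12). *Egfl6*, an EGF-like matrix protein, was at 1.01 and 0.472 CPM against 51.5 and 53.2 CPM, and *Gpha2*, *Cpxm2*, *Slpi* and *Crabp1* were the other lowest. *Ly6a*, *Lhx9*, *Angptl2*, *Bpgm*, *Bmper* and *Anxa8* were the highest, with *Ly6a* at 20.2 and 20.3 CPM in the *Tnmd* cells. Of the 13 joint surface genes tested 4 were higher and 6 lower (4 and 4 depth-matched, background 15.7% each way). Chondrocyte genes were lower than in the *Tnmd* cells too, 19 of 21 with 1 higher. Proliferation genes, mostly higher against all *Prg4*-negative cells, were mostly lower here, 7 of 12 with 2 higher (8 and 1 depth-matched). Macrophage genes (7 of 7), epithelial genes (3 of 3), genes of hypoxia and glycolysis (10 of 11) and of the dissociation response (7 of 11, with 2 higher) were also lower, and their part in these differences was not tested.

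Against the *Gdf5* cells, *Prg4*-positive cells were lower in most interzone genes and in all 21 chondrocyte genes tested, in both fits. The median log2 fold change of the chondrocyte genes was -2.51, and -2.79 depth-matched. Of the 13 listed regulators of *Prg4*, which include *Creb5*, 8 were lower and 2 higher in both fits. *Osr1* stood at 13.1 and 7.87 CPM against 144.6 and 191 CPM (-3.86 ± 0.15, adjusted p = 1.6e-10), and *Creb5* at 24.7 and 17.5 CPM against 118 and 149 CPM (-2.56 ± 0.13, adjusted p = 2.6e-09). *Nppc*, the C-type natriuretic peptide, was at 0.670 and 0 CPM against 90.6 and 89.2 CPM, and *Slc26a7*, *Col26a1*, *Angptl1* and *Sned1* were the other lowest. *Erg* differed little, at 26.5 and 30.2 CPM against 21.1 and 21.8 CPM (0.45 ± 0.15, adjusted p = 0.024, and 0.056 without scaling factors). *Thbs4*, *Ly6a*, *Anxa8*, *Mmp23*, *Cnn1* and *Lhx9* were the highest, and 11 of 12 contractile genes were higher with none lower. *Wnt16* was at 30.8 and 26.0 CPM against 2.37 and 4.46 CPM. Joint surface genes were lower for 7 of 13 and higher for 4 (6 and 4 depth-matched). Of the interzone list 10 of 15 were lower and 2 higher (background 23.3% lower and 24.3% higher), which the choice of these cells by *Gdf5*, an interzone gene, favours. Dissociation genes, 10 of 11 (8 depth-matched), and hypoxia and glycolysis genes, 11 of 11 in both fits, were lower as well, with median log2 fold changes of -2.12 and -1.29 beside -1.65 for the interzone list, and their part was not tested.

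Against the *Acan* cells, *Prg4*-positive cells were higher in joint surface genes, 8 of 13 with 4 lower (7 and 1 depth-matched, background 31.9% higher and 28.1% lower). *Creb5* was at 24.7 and 17.5 CPM against 6.96 and 7.08 CPM (1.53 ± 0.14, adjusted p = 6.3e-07), *Erg* at 26.5 and 30.2 CPM against 10.8 and 9.04 CPM and *Dkk3* at 114 and 105 CPM against 15.5 and 13.1 CPM (2.85 ± 0.08, adjusted p = 2.1e-12). All 21 chondrocyte genes tested were lower, which the choice of these cells by a cartilage gene favours, 12 of 14 fibrous matrix genes and 11 of 12 contractile genes higher. Lower too were 6 of 7 macrophage, 4 of 5 myocyte, 11 of 11 hypoxia and 7 of 11 dissociation genes, whose part was not tested. *Thbs4*, *Ly6a*, *Ahnak2*, *Crabp2*, *Ass1* and *Basp1* were the highest, and *Epyc*, *Scin*, *Snorc*, *Cmtm5*, *Mia* and *Scrg1* the lowest.

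**Figure D5:**
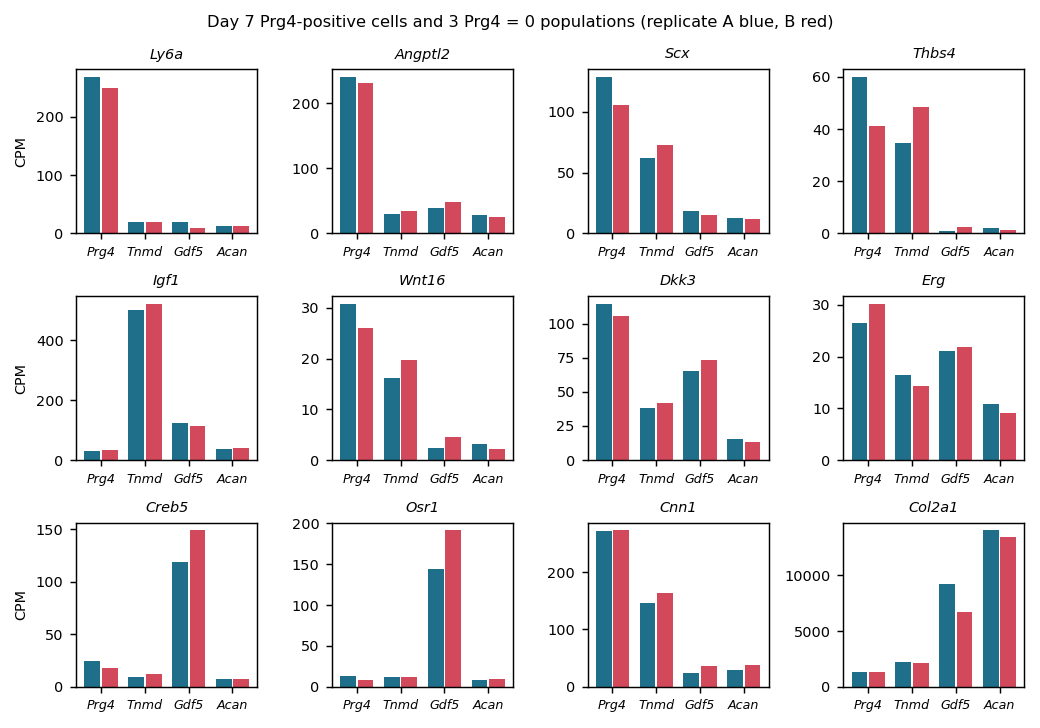
Level of 12 genes (CPM, vertical axis from 0) in *Prg4*-positive cells and in *Prg4*-negative cells chosen by *Tnmd*, *Gdf5* or *Acan*, with replicate A in blue and replicate B in red. *Ly6a* and *Angptl2* stood highest in the *Prg4*-positive cells (268 and 249.9, and 240.4 and 232 CPM), *Igf1* in the *Tnmd* cells (502 and 522 CPM), and *Creb5* and *Osr1* in the *Gdf5* cells.

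The *Prg4* difference was then taken within cells with at least 3 *Acan* UMIs and within cells with none. *Prg4*-positive cells with at least 3 *Acan* UMIs numbered 72 (31.0%) and 45 (26.8%), and macrophage-marker cells, which should not make *Acan* and were shallower, passed the same count in 11 of 29 (37.9%) and 9 of 49 (18.4%). The *Prg4*-positive share lay below theirs in replicate A and above it in replicate B, and below that of myocyte-marker cells, 44 of 90 (48.9%) and 44 of 81 (54.3%), in both. Within *Acan* cells 2289 genes (17.1%) were higher and 2144 (16.0%) lower of 13360, 33.2% in all (9.81% and 9.45% depth-matched, 19.3% in all), and all 21 chondrocyte genes tested were lower. Of all calls 51.6% were higher, and 64.3% without scaling factors. Hypoxia and glycolysis genes, 11 of 11, dissociation genes, 7 of 11, and myocyte genes, 6 of 9, were lower too. *Ly6a* was at 212 and 259 CPM against 18.9 and 14.2 CPM (3.71 ± 0.13, adjusted p = 9.3e-12), and *Creb5* at 28.7 and 13.4 CPM against 11.1 and 12.4 CPM (0.86 ± 0.22, adjusted p = 0.0061, and 0.053 by DESeq2), most of it in replicate A. *Ahnak2*, *Ass1*, *Angptl2* and *Anxa8* were among the 6 highest, as was the chemokine *Ccl2*, which was uneven between the cultures (121 and 15.9 CPM). *Epyc*, *Scin*, *Scrg1*, *Usp29*, *Snorc* and *Mia* were the lowest.

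Among cells without *Acan* the differences were fewer, with 1072 genes (8.02%) higher and 1178 (8.82%) lower of 13360, 16.8% in all, and 163 (1.56%) and 297 (2.84%) of 10459 when depth-matched, 4.40% in all. It set 68 and 47 *Prg4*-positive cells, at median depths of 36341 and 39773 UMIs, against 919 and 1338 *Prg4*-negative cells at 12382 and 10456 UMIs, where a count of 0 for *Acan* does not show that it was absent. Of the macrophage-marker cells 5 and 21 held no *Acan* UMI, and 6 of 9 macrophage genes were lower in the *Prg4*-positive cells. *Angptl2*, at 235 and 281 CPM against 69.3 and 72.1 CPM (1.89 ± 0.10, adjusted p = 4.1e-09), *Anxa8*, the kinase *Prkg2*, *Ly6a*, *Krt19* and *Thbs4* were the 6 highest and stayed called when depth-matched. *Lhx9*, *Pmepa1*, *Crabp2* and *Scx* were also higher in both fits, *Scx* at 150 and 135 CPM against 74.9 and 70.7 CPM. *Erg* was at 22.7 and 27.7 CPM against 18.5 and 18.4 CPM (0.45 ± 0.17, adjusted p = 0.091) and *Wnt16* at 35.1 and 31.2 CPM against 29.6 and 24.2 CPM (adjusted p = 0.098), so neither passed the test here. *Dkk3* did, at 121 and 118 CPM against 86.5 and 73.8 CPM (0.61 ± 0.08, adjusted p = 9.6e-05). *Creb5* was lower here, at 21.9 and 25.3 CPM against 34.4 and 42.7 CPM (-0.67 ± 0.21, adjusted p = 0.036), a call lost by DESeq2 (0.17), without the library block (0.068) and when depth-matched (0.57). *Angptl1*, *Ndufa4l2*, *Fosb*, *Dlk1*, *Fos* and *Igf1* were the lowest.

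Among cells without *Acan* the contractile genes went both ways. Of the 12 genes 3 were higher and 3 lower, and 0 higher and 7 lower when depth-matched. *Cnn1* stood at 311 and 392 CPM against 256 and 228 CPM (0.57 ± 0.10, adjusted p = 0.0011) and at a depth-matched log2 fold change of -0.07 (adjusted p = 0.90), and *Tagln* at 2417 and 2663 CPM against 2974 and 2651 CPM (-0.11 ± 0.07, adjusted p = 0.37) and at -0.70 when depth-matched (adjusted p = 7.4e-05). Of the fibrous matrix genes 2 of 14 were higher and 4 lower, and 2 and 3 when depth-matched. Likewise 18 of 21 chondrocyte genes were lower against all such cells and 1 against depth-matched ones, whereas 8 of 11 and 7 of 9 dissociation genes were lower. Myocyte genes, 6 of 9, and hypoxia and glycolysis genes, 6 of 11, were lower as well.

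The difference between the 2 strata was tested directly. It was positive for 1069 genes (8.0%) and negative for 560 (4.19%) of 13360, 12.2% in all (5.07% and 3.41% depth-matched, 8.48% in all), where positive means a higher *Prg4* fold change among *Acan* cells. Positive differences were 65.6% of those called, and 83.4% without scaling factors, where the median of all genes was 0.21. Contractile genes, 11 of 12, and fibrous matrix genes, 13 of 14, were positive with none negative, 10 of 12 and 10 of 14 when depth-matched. Dissociation genes moved the same way, 8 of 11 and 6 of 9 depth-matched with none negative, and their part was not tested, while 11 of 21 chondrocyte genes were negative and 1 positive, 18 and 0 when depth-matched. *Actg2* stood at 40.004 and 39.6 CPM against 18.7 and 27.5 CPM among *Acan* cells and at 37.1 and 71.8 CPM against 231 and 219.7 CPM among cells without *Acan*. The *Prg4*-negative cells of the 2 strata lay further apart in *Actg2* than the *Prg4*-positive cells did. For *Creb5* the difference between the strata was 1.53 ± 0.30 (adjusted p = 0.0025), and 2.09 ± 0.50 when depth-matched (adjusted p = 0.015).

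Finally, the *Prg4* fold change of Day 10 was set against that of Day 7. The difference was positive for 561 genes (3.92%) and negative for 939 (6.56%) of 14315, 10.5% in all, and for 152 (1.10%) and 428 (3.10%) of 13801 when depth-matched, 4.20% in all. The counts were 154 and 522 without Day 7 replicate A and 240 and 646 without Day 7 replicate B, and 37.4% of all calls were positive, against 22.8% without scaling factors. Of the contractile genes 11 of 12 and of the fibrous matrix genes 12 of 14 were negative with none positive, 10 and 11 when depth-matched. FGF genes, 5 of 14, and TGF-beta and BMP ligands, 4 of 12, were also negative with none positive (2 and 3 depth-matched). In the other direction, 5 of 11 genes of hypoxia and glycolysis and 5 of 11 of the dissociation response were positive with none negative, 2 and 3 when depth-matched. *Tagln* stood at 2372 and 2251 CPM in *Prg4*-positive cells of Day 7 and 1893 and 1838 CPM at Day 10, against 1030.2 and 1102 CPM and 1706 and 1715 CPM in *Prg4*-negative cells, a difference of -0.94 ± 0.06 (adjusted p = 1.9e-06). *Col1a1* was at 2803 and 2822 CPM and then 3873 and 3572 CPM, against 1666 and 1584 CPM and then 3297 and 2896 CPM. For both genes the *Prg4*-negative cells moved further between the days than the *Prg4*-positive cells did. For *Angptl2* the reverse held: *Prg4*-positive cells stood at 240.4 and 232 CPM and then at 135 and 144 CPM, and *Prg4*-negative cells at 43.5 and 41.8 CPM and then at 47.9 and 47.1 CPM (-0.86 ± 0.08, adjusted p = 3.4e-05). For *Erg* (-0.25 ± 0.13, adjusted p = 0.26) and *Creb5* (0.35 ± 0.19, adjusted p = 0.31) no difference between the days passed the test.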

How the data were processed

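Droplet libraries were made from 2 independent DID cultures at each of Day 2, Day 7 and Day 10. Per the labels and the study's methods, the authors processed the reads with Cell Ranger 6.1.2 and STAR against GRCm38, and the deposited files hold UMI counts per gene and barcode without normalization. Total UMIs per library ran from 166797398 to 253858740 over the cells kept, and intervals cover counting error only. The study's Seurat 4.1.0 clusters were not used, and its own limits on cells only as an alternative.

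Cells with at least 3000 UMIs, at most 7500 genes and at most 25% mitochondrial UMIs were kept, without batch integration. No doublets were removed, since a doublet caller (Scrublet, scanpy 1.11.5) marked 0 of 9355 and 0 of 9373 cells at Day 7, which is too few for it to have worked. Counts were summed per library and class of cells (CPM is UMIs per 1000000 of the sum) and tested with edgeR 4.0.16 (filterByExpr, TMM, quasi-likelihood test, library as block, R 4.3.3). Day 7 and Day 10 sums of 3 *Prg4* classes shared one estimate of the spread, and *Prg4* was left out. Adjusted p-values are Benjamini-Hochberg over all genes tested. The library pairs the classes because both come from the same droplet library of one culture. The fit was tested on simulated data for Day 7 positive against negative cells, where it called 98% of genes changed 4-fold, 78% of those changed 1.5-fold and 67.3% of those lowered to 0.5-fold over 14225 genes. There 14026 genes were left unchanged and all had a common spread, whereas 50.7% of genes were called in the data. The simulated rates therefore need not hold for the data.

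Depth matching drew comparison cells in bins of 0.1 log10 UMIs, where cells of that depth were found. Shares at equal depth came from cells thinned to 3000 UMIs. Alternatives were no scaling factors, DESeq2 1.42.0, no filter, no block, each Day 7 library left out, other *Prg4* minimums, thinned cells, the study's limits on cells, removal of marker cells and, chosen after seeing the data, no upper limit on genes and depth matching outside the main comparison. Named genes were the 12 highest and 12 lowest fold changes among called genes with at least 50 CPM in 1 class (6 and 6 in the other comparisons) with the same sign in both libraries. From the 34 gene lists the text gives the largest changes at 20 CPM or more, and further members picked with their values in view. The cells and lists were chosen with earlier results of these data known. *Aldoa* was listed under 2 identifiers and was not matched.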

Additional observations from a re-analysis of the deposited data

Results flagged for a closer look

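Results stand here because the *Prg4* log2 fold change differed between 2 settings by a test of the difference (edgeR's quasi-likelihood test, Benjamini-Hochberg adjustment). A shift of either class can give such a difference, and for *Sgms2* and *Stk26* below the *Prg4*-negative cells moved further.

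Between Day 10 and Day 7 the difference of the *Prg4* log2 fold change was positive for 561 genes and negative for 939. The named positive differences were *Mmp3*, stromelysin (1.71, not called when depth-matched, adjusted p = 0.28, or without Day 7 replicate A or B, adjusted p = 0.095 and 0.14), *Epyc* (1.60, adjusted p = 0.10 without Day 7 replicate A), *Fosb* (1.54), *Dcn* (1.49), *Phyh* (1.31) and *Pdgfra* (1.16). *Dcn* stood at 23.0 and 22.2 CPM in *Prg4*-positive cells at Day 7 and at 29.3 and 36.1 CPM at Day 10, against 135 and 141 CPM and then 72.6 and 75.1 CPM in *Prg4*-negative cells. The negative ones were *Sgms2* (-2.05), *Eln* (-1.45, adjusted p = 0.074 when depth-matched), *Ptn* (-1.32), *Actg2* (-1.30, adjusted p = 0.18 and 0.091 without Day 7 replicate A or B), *Fxyd5* (-1.17) and *S100a4* (-1.11). The calls of *Mmp3* and *Actg2* were also lost without the library block (adjusted p = 0.074 and 0.092). *Sgms2*, a sphingomyelin synthase, stood at 9.27 and 7.40 CPM and then 11.96 and 16.6 CPM in *Prg4*-positive cells, while *Prg4*-negative cells stood at 11.2 and 9.80 CPM and then 75.6 and 78.3 CPM. Smaller negative differences were found for *Tagln* (-0.94), *Acta2* (-0.87), *Cnn1* (-0.86), *Angptl2* (-0.86), *Col1a1* (-0.47) and *Ly6a* (-0.63, not called by DESeq2, without the library block or when depth-matched, adjusted p = 0.25, 0.18 and 0.39).

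Between cells with at least 3 *Acan* UMIs and cells with none at Day 7 the difference was positive for 1069 genes and negative for 560. The named positive differences were *Ccl2* (5.13), *Col10a1* (3.12, adjusted p = 0.067 when depth-matched), *Actg2* (2.80), *Ankrd1* (2.78, adjusted p = 0.091 when depth-matched), *Ptgs2* (2.48) and *Ass1* (2.41). The *Col10a1* call was also lost by DESeq2 (adjusted p = 0.17) and without the library block (0.062). *Ccl2* and *Col10a1* were uneven among *Prg4*-positive *Acan* cells, at 121 and 15.9 CPM in replicates A and B for *Ccl2* and at 13.7 and 107 CPM for *Col10a1*. The negative ones were *Cdsn* (-2.65), *Stk26* (-2.37), *Chad* (-1.97), *S100b* (-1.82), *Chadl* (-1.79) and *Trib3* (-1.77). *Stk26*, a kinase, stood at 44.7 and 54.0 CPM and at 46.6 and 47.7 CPM in *Prg4*-positive cells with and without *Acan*, and at 107 and 102 CPM and at 22.5 and 21.1 CPM in *Prg4*-negative cells. *Creb5* had a difference of 1.53 (adjusted p from 1.1e-09 to 0.015 over the alternatives run, which left out no library). Among *Acan* cells it stood at 28.7 and 13.4 CPM in *Prg4*-positive and 11.1 and 12.4 CPM in *Prg4*-negative cells, so replicate B differed little, and the call within each stratum was lost under some alternatives.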

How the results depend on the processing

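Against all *Prg4*-negative cells of Day 7, the counts of genes higher and lower were 1489 and 1393 when every cell was thinned to 3000 UMIs, and the count lower was 2267 when cells were chosen by 2 or more *Prg4* UMIs after thinning, 2222 when depth-matched, and 2069 to 2490 without replicate A or replicate B (2582 to 3082 higher). For the Day 10 minus Day 7 difference, DESeq2 gave 310 positive genes, the fit with no replicate block 302 positive and 572 negative, depth matching 152 and 428, and the fits without Day 7 replicate A or B 154 to 240 positive and 522 to 646 negative. Leaving out the block changed no other count of calls by over 1.5 times, and the library pairs the classes. Depth matching gave 1370 genes higher against the *Tnmd* cells, 1026 higher and 988 lower among *Acan* cells, 163 and 297 among cells without *Acan*, and 530 and 357 for their difference, which had 312 negative genes without scaling factors. The *Prg4*-positive share after thinning was 1.40% and 0.928% at Day 7 and 2.36% and 2.18% at Day 10. Of the 246 named results, 4 changed direction when depth-matched: *Egfr* (0.15), *Mki67* (-0.10, and -0.061 with thinned cells), *Nfatc1* (0.11) and *Cnn1* among cells without *Acan* (-0.074). Depth-matched sums hold fewer cells, and the cause was not tested. Leaving out a library was not run for the *Tnmd*, *Gdf5* and *Acan* comparisons, where 1 library leaves no residual degrees of freedom.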
